A study of Mus musculus with 2 samples.

Results

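The genes described here are the nuclear-encoded subunits of the mitochondrial respiratory chain and ATP synthase, measured by spatial transcriptomics (ST) in the liver of 1 AEG-1ΔMAC mouse and of 1 floxed control (AEG-1fl/fl). Members were every gene whose symbol is that of an Nduf subunit (complex I), Sdha to Sdhd (complex II), a Uqcr gene (complex III), a Cox4 to Cox8 gene (complex IV) or an Atp5 gene (complex V). This gave 73 of the 19465 genes in the files: 33 for complex I, 4 for complex II, 7 for complex III, 16 for complex IV and 13 for complex V. The symbols were the only criterion, so Cox7a2l, which acts in supercomplex assembly, and Ndufb1-ps, a locus named as a pseudogene, were included. Ndufa4l2 was counted with complex IV, where its relative Ndufa4 is a subunit.

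Complexes I to IV sit in the inner mitochondrial membrane and pass electrons from NADH and succinate to oxygen. Complexes I, III and IV pump protons as they do so, and complex V, the ATP synthase, uses the proton gradient to make ATP. In the liver, hepatocytes near the portal tract (zone 1) receive more oxygen than those near the central vein (zone 3), and oxidative metabolism is classically placed toward zone 1. Several complex IV subunits exist as tissue-type isoforms, with one gene used in most tissues and another used mainly in muscle, lung or testis.

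AEG-1ΔMAC mice carry floxed alleles of Mtdh, the gene of AEG-1, and Cre recombinase driven by the Lyz2 locus, which is active in myeloid cells, whereas AEG-1fl/fl mice carry the floxed alleles without Cre. The labels give both mice an age of 27 weeks and a high fat/high sugar diet (HF/HSD) for 20 weeks from the age of 7 weeks, but the study describes this assay in littermates on control diet, so the diet of these mice is not settled here. There were no replicates: each genotype was 1 library, every interval below covers counting error only, and no test between genotypes was possible. After filtering, 2140 AEG-1ΔMAC spots held 45453286 unique molecular identifiers (UMIs, each a captured probe molecule) and 2540 AEG-1fl/fl spots held 50322850 UMIs. The median spot held 20929.5 and 18285 UMIs, respectively, and 1782 spot barcodes were used in both libraries, as barcodes mark positions on the slide. Hepatocyte markers dominated both sections, with Alb alone taking 8.80% of UMIs in AEG-1ΔMAC and 14.2% in the floxed control. Mtdh was at 66.3 and 60.2 CPM (the UMIs of a gene over all UMIs of the library, scaled as usual), respectively, which does not check the genotype because only myeloid cells lose the gene, and Lyz2 had 25 and 41 UMIs.

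Of the 73 members, 61 had a mean of at least 10 CPM over the libraries and entered the medians and counts: 30 of complex I, 4 of complex II, 7 of complex III, 7 of complex IV and 13 of complex V. The 12 others were Ndufb2, Ndufb3, Ndufb4, Cox7c, Ndufa4l2, Cox4i2, Cox6a2, Cox6b2, Cox7a1, Cox7b2, Cox8b and Cox8c. Cox4i1, Cox6b1, Atp5g2, Ndufa4 and the mitochondrially encoded subunits were not analysed here. Because every gene is read by its own probes, levels were compared between libraries or zones for 1 gene at a time and not between genes.

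The members' promoters were read from RefSeq (build GRCm38.p6) in windows from 250 bases before to 50 bases after the start, which 57 of the 73 members had. Among the 49 matched members at 10 CPM or more, 38.8% of windows held the core of the nuclear respiratory factor NRF1 motif (GCGCANGC), against 23.9% of the 5548 matched genes at that level and 11.2% of all 27025 genes in the table. The ETS motif read by GABPA (CCGGAAG) was in 28.6% of them, against 21.6% and 9.93%. The estrogen-related receptor (ERR) motif AAGGTCA was in 12.2%, against 4.09% and 5.38%, and the YY1 motif ATGGCGG was in 20.4%, against 10.6% and 4.69%. Both strands were searched, no hits of different motifs overlapped in a member, and 21 of the 57 members held none of the 4 motifs in this window. Among matched members at 10 CPM or more, ERR hits lay in 4 of 10 of complex V (Atp5e, Atp5g3, Atp5k and Atp5l) and YY1 hits in 8 of 25 of complex I. As examples of an ETS hit and an ERR hit, the 150 bases before the start are printed for Uqcr11 (chr10:80406822-80406971, minus strand), the member with the lowest ratio between the genotypes among those at 10 CPM or more, and for Atp5l (chr9:44920743-44920892, minus strand), with the hit in capitals.
Uqcr11: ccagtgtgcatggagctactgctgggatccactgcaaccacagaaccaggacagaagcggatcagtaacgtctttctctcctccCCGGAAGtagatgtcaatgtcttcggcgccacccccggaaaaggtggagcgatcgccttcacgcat
Atp5l: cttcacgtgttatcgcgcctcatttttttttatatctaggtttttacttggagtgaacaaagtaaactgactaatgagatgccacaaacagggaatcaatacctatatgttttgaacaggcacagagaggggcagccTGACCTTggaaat
A hit is a description of the letters and not evidence of binding.

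The first question was whether the level of the respiratory chain differed between the genotypes. Together the members took 1.45% of UMIs in AEG-1ΔMAC and 1.38% in the floxed control, a log2 ratio of 0.07 (95% interval 0.07 to 0.08). Their median log2 ratio was 0.08, while the median over all 6933 genes at 10 CPM or more was 0.15, so relative to all genes the members had a median of -0.07. The sign of the unadjusted median depended on the scaling, as it was -0.05 with TMM factors, -0.05 with median-of-ratios factors and -0.06 when the 50 most abundant genes were left out of the total. The relative median cannot move with a rescaling, which shifts every gene alike, and it ranged from -0.08 to -0.05 over the other selections of spots and minimum levels run. The members were also close to each other: the middle 50% of their log2 ratios spanned 0.15, against 0.24 for all genes, and the whole range ran from -0.17 to 0.41. All genes were not matched to the members in level, here or in the shares below, and genes with few UMIs spread more by counting alone. In spots that hold several cells, fewer cells of a type and less RNA per cell cannot be told apart.

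A gene was counted when its ratio was at least 1.2-fold and the interval lay on that side. By this rule 3 of the 61 members were higher in AEG-1ΔMAC (Ndufa12, Ndufs5 and Ndufa11), where 25.9% of all genes were, and 0 were lower, where 5.5% of all genes were. Relative to the median of all genes, 1 member was higher (Ndufa12; 9.59% of all genes) and 1 lower (Uqcr11; 11% of all genes). With 1.1-fold in place of 1.2-fold, 2 members were higher and 16 lower relative to all genes, where the shares of all genes were 21.5% and 21.9%. The 16 lower members are 26.2% of 61, a share near that of all genes, whereas the 2 higher members are 3.28%.

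**Figure D1:**
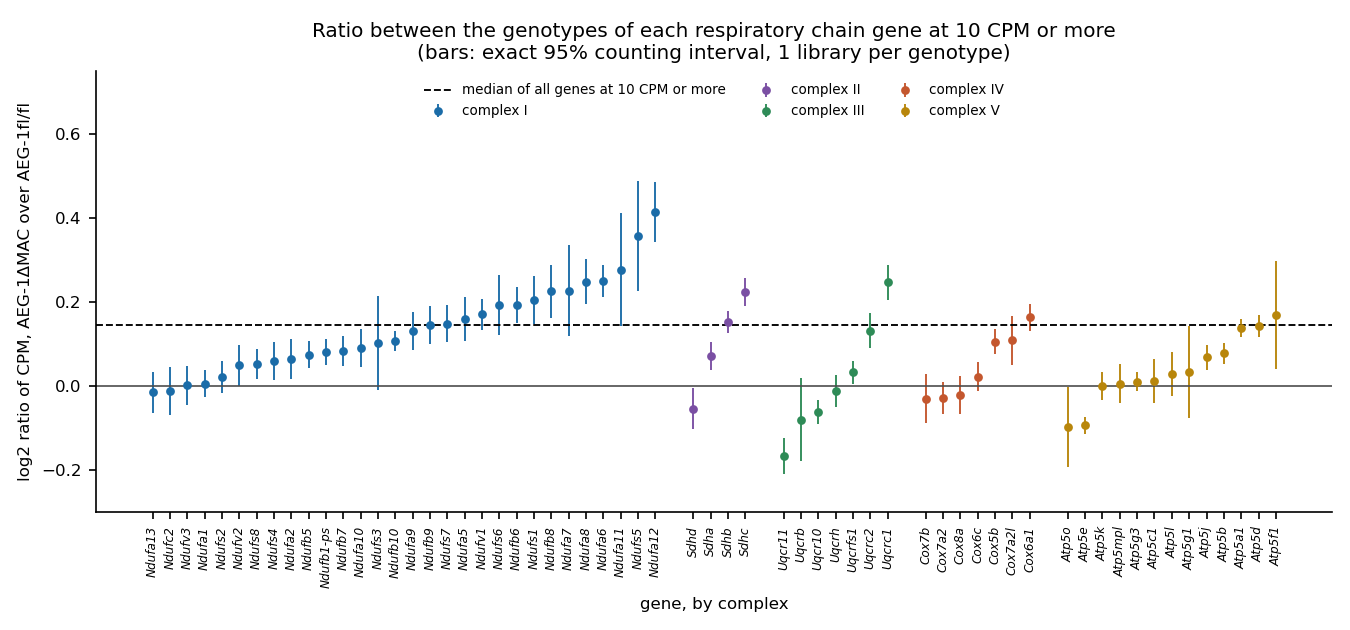
Log2 ratio between the genotypes (CPM of AEG-1ΔMAC divided by that of the floxed control) for each of the 61 members at 10 CPM or more, by complex; bars are exact 95% counting intervals and the dashed line is the median of all genes (0.15). Of 13 complex V genes 12 lie below the dashed line, as do 6 of 7 in complexes III and IV each, while the 30 complex I genes lie on both sides.

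Complex I, the NADH dehydrogenase, spanned the widest range of log2 ratios of the 5 complexes among members at 10 CPM or more, from -0.02 to 0.41. Its summed level was 5377 CPM in AEG-1ΔMAC and 4990.2 CPM in the floxed control, and the median log2 ratio of its 30 members was 0.12 (-0.03 relative to all genes), with 13 above and 17 below the median of all genes. The 7 core subunits, which include those that carry the flavin and the iron-sulfur clusters, had a median of 0.10 and the 23 supernumerary subunits one of 0.13. Ndufa12, a supernumerary subunit next to the catalytic arm, had 3528 UMIs in AEG-1ΔMAC and 2931 in the floxed control (77.6 and 58.2 CPM), a log2 ratio of 0.41 (0.34 to 0.49), and it stayed between 0.27 and 0.41 under every scaling and selection of spots run. Ndufs5, an intermembrane-space-facing subunit with few UMIs, was at 22.6 and 17.6 CPM (1027 and 888 UMIs), a log2 ratio of 0.36 (0.23 to 0.49). Both lay above the median of all genes with the whole of their interval. At the other end, Ndufa13 (also known as Grim19) was at 143 and 144 CPM, a log2 ratio of -0.02 (-0.06 to 0.03), and Ndufc2 at 105 and 106 CPM, a log2 ratio of -0.01 (-0.07 to 0.04). These were level between the libraries in CPM and below the median of all genes. The core subunit Ndufv1, which binds NADH, was at 252 and 224 CPM, a log2 ratio of 0.17 (0.13 to 0.21), close to the median of all genes.

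Complex II, succinate dehydrogenase, also works in the TCA cycle. Its membrane anchors lay at opposite ends: Sdhc was at 329 and 281 CPM (log2 ratio 0.22, 0.19 to 0.26) and Sdhd at 138 and 144 CPM (log2 ratio -0.06, -0.10 to -0.01). The flavoprotein Sdha was at 313 and 298 CPM (0.07, 0.04 to 0.11), and the iron-sulfur subunit Sdhb at 547 and 492 CPM (0.15, 0.13 to 0.18). The 4 intervals did not overlap although these are subunits of 1 enzyme, and their median was 0.11 (-0.03 relative to all genes).

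Complex III, the cytochrome bc1 complex, had the lowest median of the 5, with -0.01 (-0.16 relative to all genes) and 6 of its 7 members below the median of all genes. Its large core subunits were the higher members: Uqcrc1 was at 209 and 176 CPM (log2 ratio 0.25, 0.20 to 0.29) and Uqcrc2 at 197 and 180 CPM (0.13, 0.09 to 0.17). The Rieske iron-sulfur protein, Uqcrfs1, was at 441 and 431 CPM (0.03, 0.00 to 0.06). The 4 small subunits all lay below these: Uqcrh at 238 and 240 CPM (-0.01), Uqcr10 at 394 and 411 CPM (-0.06), Uqcrb at 34.1 and 36.0 CPM (-0.08) and Uqcr11 at 174 and 195 CPM. Uqcr11 had the lowest ratio of all 61 members, at -0.17 (-0.21 to -0.13) and 0.31 below the median of all genes.

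Complex IV, cytochrome c oxidase, had a median of 0.02 over its 7 members at 10 CPM or more (-0.12 relative to all genes). Cox6a1 was at 342 and 306 CPM (log2 ratio 0.16, 0.13 to 0.20) and Cox5b at 387 and 359 CPM (0.11, 0.07 to 0.14). Cox7b (99.2 and 101 CPM, -0.03), Cox7a2 (229 and 234 CPM, -0.03) and Cox8a (166 and 168 CPM, -0.02) were level between the libraries in CPM. The supercomplex factor Cox7a2l was at 102 and 94.4 CPM (0.11, 0.05 to 0.17).

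Complex V had a median of 0.03 (-0.12 relative to all genes). The 5 subunits of the catalytic F1 head had a median of 0.08 and the 8 of the membrane and stalk portion one of 0.02. In the head, Atp5d (subunit delta) was at 533 and 483 CPM (0.14, 0.12 to 0.17) and Atp5e (subunit epsilon) at 793 and 846 CPM (-0.09, -0.11 to -0.07), so neighbours in the central stalk lay on opposite sides of 0. In the other portion, Atp5o, which joins the head to the peripheral stalk, was at 36.4 and 39.0 CPM (-0.10, -0.19 to 0.00). Atp5f1, the peripheral stalk subunit b, was the highest at 22.0 and 19.6 CPM (0.17, 0.04 to 0.30).

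Transcript length moved with these ratios. The longest protein-coding transcript of a member had a median of 950.5 bases, against 3104 over all genes. The 31 members of up to 1000 bases had a median log2 ratio of 0.06, and all 336 genes of that length had the same median of 0.06, while the members above 1000 bases had 0.09 and all genes above it 0.15. Across the 60 members with a length, Spearman's rho between length and log2 ratio was 0.31, and across all genes with a length it was 0.14, in both cases over genes that share 1 pair of libraries. The part of transcript length in the members' lower centre was not tested.

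The 12 members under 10 CPM hold most of the tissue-type isoforms. Of the 9 with at least 10 UMIs in all, 4 were lower in AEG-1ΔMAC by the 1.2-fold rule (Cox4i2, Cox6b2, Ndufa4l2 and Cox7a1), where 12.6% of the 6451 such genes in the files were, and 1 was higher (Ndufb3, 18.1%). Cox7a1, the heart and muscle isoform of subunit 7a, had 209 UMIs in AEG-1ΔMAC and 417 in the floxed control (4.60 and 8.29 CPM), a log2 ratio of -0.85 (-1.10 to -0.61). Its widely used counterpart Cox7a2 was level, as given above. Ndufa4l2, a hypoxia-responsive relative of Ndufa4, had 109 and 306 UMIs (2.40 and 6.08 CPM), a log2 ratio of -1.34 (-1.67 to -1.02). Cox4i2, the lung isoform of subunit 4, had 11 and 58 UMIs (0.24 and 1.15 CPM), a log2 ratio of -2.25 (-3.33 to -1.31). For these 3 genes the intervals of the libraries did not overlap. The other isoforms were nearer to the limit of the counts: Cox6b2, the testis isoform, had 6 and 23 UMIs and Cox6a2, the muscle isoform, 17 and 31. The rest had at most 5 UMIs in a library (Cox8b 5 and 3, Cox8c 0 and 1, Cox7b2 1 and 0). With 3 UMIs taken as the limit that a count of 0 allows, this limit was 0.066 CPM in AEG-1ΔMAC and 0.0596 CPM in the floxed control.

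**Figure D2:**
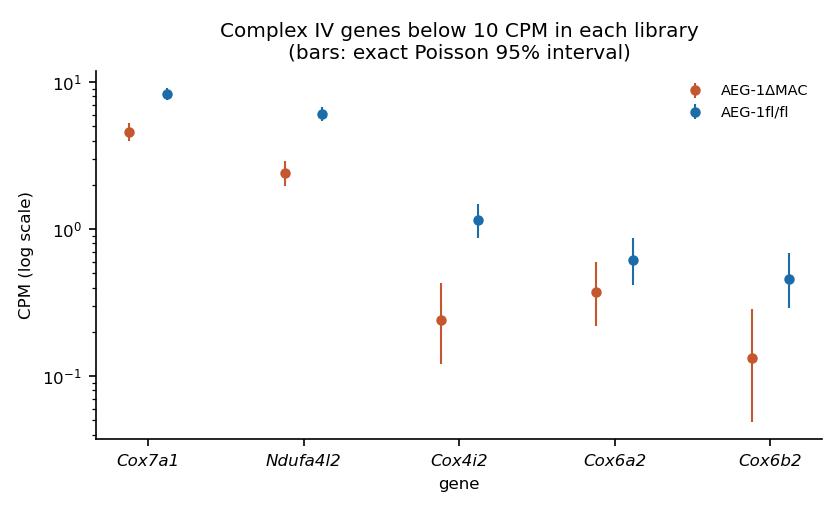
CPM on a log scale of 5 complex IV genes under 10 CPM in each library, with exact Poisson 95% intervals. The AEG-1ΔMAC point is below the AEG-1fl/fl point for each gene, and for Cox7a1, Ndufa4l2, Cox4i2 and Cox6b2 the intervals are apart.

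Ndufa4l2 and Cox4i2 were higher in spots rich in portal and vessel genes. In the 10% of spots with the highest level of portal and vessel genes (214 and 254 spots), Ndufa4l2 was 8.94 CPM in AEG-1ΔMAC and 15.7 CPM in the floxed control, a log2 ratio over the other spots of 2.39 (1.79 to 2.98) and 1.64 (1.25 to 2.02). Cox4i2 was higher there by 3.50 (1.52 to 5.55) and 2.37 (1.53 to 3.18) on the log2 scale, which rested on 6 and 21 UMIs in these spots. Cox7a1 was higher there by 0.54 (-0.09 to 1.12) and 0.38 (-0.07 to 0.80). Along the lobule Cox7a1 was higher toward zone 1 in both libraries, with a log2 ratio of the zone 3 over the zone 1 spots of -1.33 (-1.89 to -0.79) and -0.87 (-1.24 to -0.51). For Ndufa4l2 this was -1.16 (-1.92 to -0.44) in AEG-1ΔMAC and -0.04 (-0.44 to 0.37) in the floxed control. Over the 61 members at 10 CPM or more, the ratio in portal and vessel spots ranged from -0.16 to 0.14 in AEG-1ΔMAC and from -0.23 to 0.20 in the floxed control. The 4 vessel wall markers summed to 34.3 and 31.3 CPM and the 4 hepatic stellate cell markers to 392 and 393 CPM in AEG-1ΔMAC and the floxed control, respectively. Within each list the genes lay on both sides of 0: Acta2 (log2 ratio 0.60), Myh11 (0.62) and Mgp (0.35) against Tagln (-0.24) in the vessel wall list, and Ecm1 (0.13) and Dcn (0.11) against Colec11 (-0.48) and Reln (-0.12) in the stellate cell list. Muscle markers had 3 and 0 UMIs and fat markers 3 and 1. The vessel wall markers were not spread alike: they summed to 252 CPM in the portal and vessel spots of AEG-1ΔMAC and 135 CPM in those of the floxed control. In the remaining spots they summed to 11.1 CPM in AEG-1ΔMAC and 19.8 CPM in the floxed control, and the stellate cell markers to 382 and 383 CPM. In these remaining spots the log2 ratios between the genotypes were -0.87 for Cox7a1, -1.56 for Ndufa4l2 and -2.75 for Cox4i2. The part of cell type in these differences was not tested further. For the isoform pair of subunit 7a, the 150 bases before the start are given for Cox7a1 (chr7:30184021-30184170, plus strand) and Cox7a2 (chr9:79759854-79760003, minus strand), neither of which holds any of the 4 motifs.
Cox7a1: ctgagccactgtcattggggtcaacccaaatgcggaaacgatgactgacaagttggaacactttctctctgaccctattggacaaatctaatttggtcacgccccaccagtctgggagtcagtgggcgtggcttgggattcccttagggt
Cox7a2: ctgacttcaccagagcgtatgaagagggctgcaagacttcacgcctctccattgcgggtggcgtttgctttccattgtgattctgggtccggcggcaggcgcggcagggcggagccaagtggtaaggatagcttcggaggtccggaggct
The stretch of Cox7a1 has 52.0% G and C and that of Cox7a2 60.7%.

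Ndufb3, a complex I subunit of the membrane arm, moved the other way. It had 359 UMIs in AEG-1ΔMAC and 188 in the floxed control (7.90 and 3.74 CPM), a log2 ratio of 1.08 (0.82 to 1.34). This exceeded every member at 10 CPM or more, and the other low complex I members were at 0.22 (Ndufb4, -0.07 to 0.50) and 0.29 (Ndufb2, -0.02 to 0.61).

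The second question was how the chain was distributed along the lobule. Spots of each library were ranked by zone 3 markers minus zone 1 markers and divided into 3 equal parts, and the zone ratio is the CPM of the zone 3 part over that of the zone 1 part on the log2 scale. The members were nearly flat: their median zone ratio was 0.01 in AEG-1ΔMAC and 0.04 in the floxed control, against 0.09 and 0.07 over all genes. Thus 50 and 40 of the 61 members lay below the median of all genes, although 35 and 45 of them lay above 0, toward zone 3. When the 50 most abundant genes were left out of the totals the members' medians turned to -0.10 and -0.05. By the 1.2-fold rule 0 members were higher in zone 3 in AEG-1ΔMAC and 1 in the floxed control (Ndufs5), where 16.8% and 14% of all genes were. In each library 1 member was higher in zone 1, Atp5g1 both times, where 6.42% and 5.11% of all genes were. Across the 61 members Pearson's r between the zone ratios of both libraries was 0.67, against 0.79 across all genes.

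**Figure D3:**
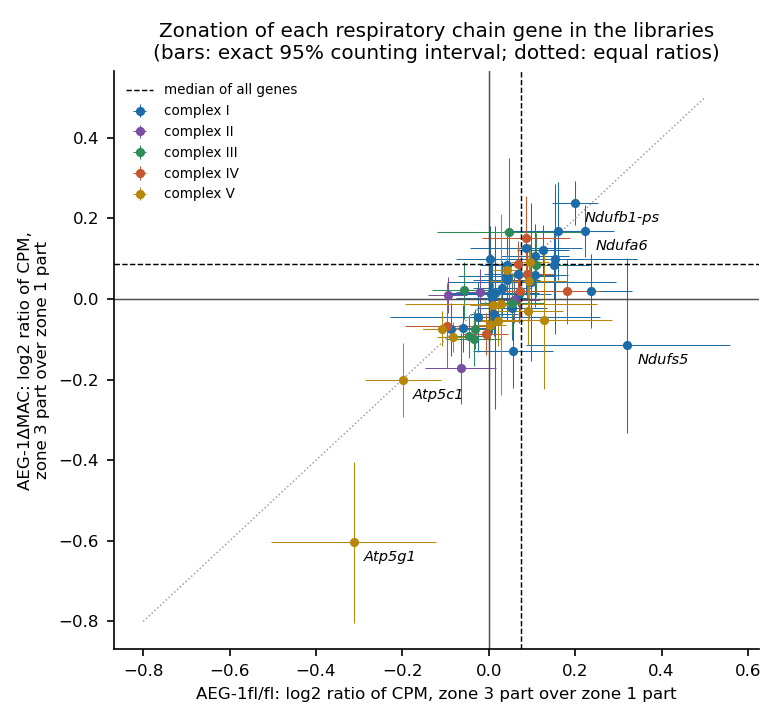
Zone ratio (log2 of CPM in the zone 3 part over the zone 1 part) of each of the 61 members in the floxed control (x axis) and AEG-1ΔMAC (y axis), with exact 95% counting intervals; dashed lines mark the medians of all genes (0.07 and 0.09) and the dotted line equal ratios. Most members sit near 0 on both axes, and Atp5g1 stands apart on the zone 1 side of both libraries.

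All 5 complexes had small zone ratios, and relative to all genes the median of each lay below 0 in both libraries. In AEG-1ΔMAC these relative medians were -0.04, -0.08, -0.10, -0.07 and -0.14 for complexes I to V, and in the floxed control -0.01, -0.12, -0.11, -0.0023 and -0.05. Over the other settings run, those of complexes I and IV in the floxed control rose to as much as 0.0057 and 0.028. Unadjusted, the medians for complexes I to V were 0.04, 0.00, -0.01, 0.02 and -0.05 in AEG-1ΔMAC and 0.06, -0.04, -0.03, 0.07 and 0.02 in the floxed control. The summed level of complex I went from 5249 CPM in the first of 10 equal parts of the spots to 5581 CPM in the last in AEG-1ΔMAC and from 4877 to 5264 CPM in the floxed control. Of its members at 10 CPM or more, Ndufb1-ps (0.24 and 0.20) and Ndufa6 (0.17 and 0.22) had the highest mean zone ratios. The NADH-binding subunit Ndufv1 ran the other way in both libraries, with -0.08 (-0.14 to -0.01) and -0.09 (-0.15 to -0.02). In complex V the head subunit gamma, Atp5c1, had -0.20 (-0.29 to -0.11) in AEG-1ΔMAC and -0.20 (-0.29 to -0.11) in the floxed control, and Atp5b, the catalytic subunit beta, -0.07 and -0.11. Atp5d ran the other way in both, with 0.09 and 0.10.

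**Figure D4:**
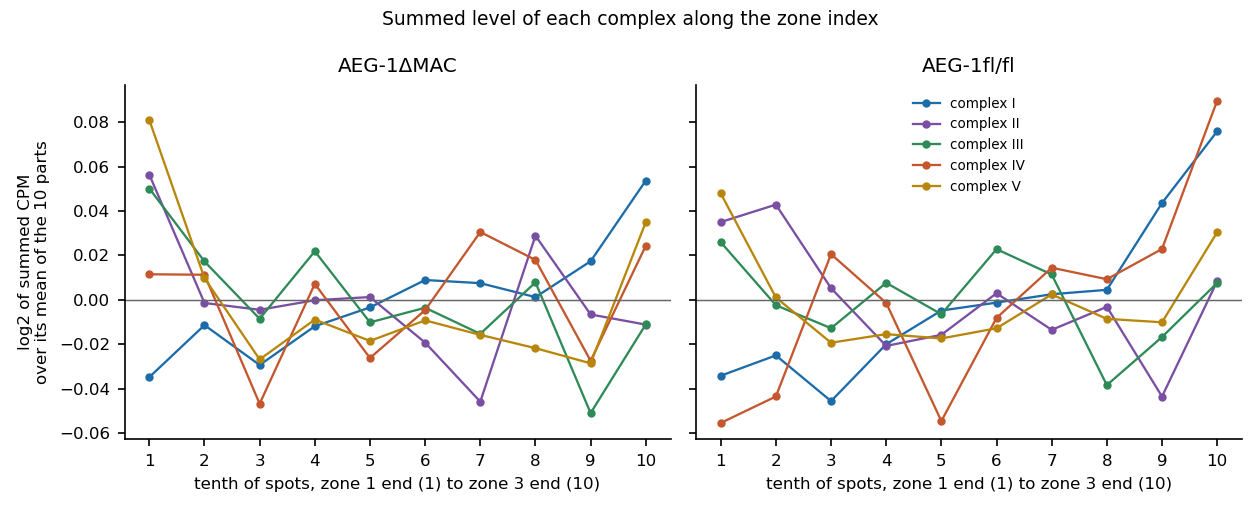
Log2 of each complex's summed CPM over its mean of 10 equal parts of the zone index, from the zone 1 end (1) to the zone 3 end (10), in each library. All lines stay within about 0.1 of 0, and complex I is lowest near the zone 1 end and highest at part 10 in both libraries. The lines are not relative to all genes.

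Atp5g1 and Atp5g3 encode the same mature protein, subunit c of the proton-carrying ring, with different mitochondrial import sequences. Atp5g1 went from 43.4 CPM in the first of the 10 parts of AEG-1ΔMAC to 21.0 CPM in the last, and from 35.1 to 25.9 CPM in the floxed control. Its zone ratio was -0.60 (-0.80 to -0.40) and -0.31 (-0.50 to -0.12), respectively. With the outer 10% of spots at each end it was -1.05 and -0.43, and with an index from landmark genes outside the marker lists of the study -0.58 and -0.23, the last of which is under 1.2-fold. Atp5g3 went from 764 to 714 CPM and from 737 to 720.1 CPM, a zone ratio of -0.06 (-0.10 to -0.03) and 0.00 (-0.03 to 0.04). The intervals of these genes did not overlap within either library. Between the genotypes both were level in CPM, Atp5g1 at 28.8 and 28.2 and Atp5g3 at 699.8 and 695. Because they differ in zonation, their upstream stretches are printed for Atp5g1 (chr11:96075632-96075781, minus strand) and Atp5g3 (chr2:73911327-73911476, minus strand), with the ERR hit of Atp5g3 in capitals.
Atp5g1: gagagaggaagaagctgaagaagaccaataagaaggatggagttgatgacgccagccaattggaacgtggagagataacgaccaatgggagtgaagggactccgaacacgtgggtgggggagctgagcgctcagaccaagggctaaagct
Atp5g3: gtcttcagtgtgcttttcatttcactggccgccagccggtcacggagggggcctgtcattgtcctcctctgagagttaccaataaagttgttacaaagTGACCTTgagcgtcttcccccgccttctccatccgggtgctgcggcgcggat
Atp5g1 held none of the 4 motifs in its window.

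**Figure D5:**
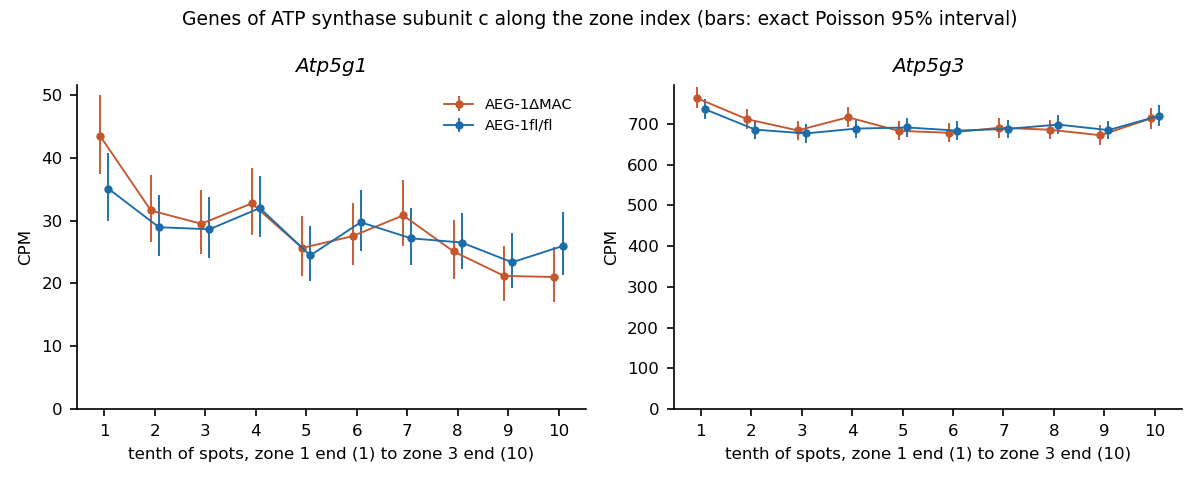
CPM of Atp5g1 and Atp5g3 in 10 equal parts of the zone index in each library, with exact Poisson 95% intervals; each axis starts at 0. Atp5g1 declines toward the zone 3 end in both libraries, and Atp5g3 is nearly flat.

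The zone ratio differed between the libraries beyond counting error in 9 of 61 members (14.8%), a share near the 17.4% of all genes. The ratio was lower in AEG-1ΔMAC for Ndufs5, Ndufa8, Ndufa5, Atp5g1, Cox8a, Atp5mpl, Cox5b and Atp5g3, and higher only for Sdhb (0.01 against -0.10). The directions over all genes were not counted, so this split cannot be called particular to the members. Ndufs5 had the widest gap, with -0.11 in AEG-1ΔMAC and 0.32 in the floxed control, a difference of -0.44 (-0.75 to -0.12). It rested on 271 UMIs in the zone 1 part of AEG-1fl/fl, and its ratio there turned to -0.17 when only the outer 10% of spots at each end were used. Atp5g1 differed by -0.29. Seen as the ratio between the genotypes within the zone 1, middle and zone 3 parts, the median of all members was 0.08, 0.09 and 0.07, where that of all genes was 0.13, 0.16 and 0.15. These medians were 0.12, 0.11 and 0.10 for complex I, 0.08, 0.11 and 0.14 for complex II, and 0.01, -0.01 and -0.05 for complex III. For complex IV they were 0.05, 0.04 and 0.0013, and for complex V 0.07, 0.03 and -0.01. Every complex thus lay below all genes in each part. Markers of zone 3 were at 8543 CPM in AEG-1ΔMAC and 3498 CPM in the floxed control, so equal parts of the ranking need not cover equal positions in the lobule, and the part of this in the differences was not tested.

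From spot to spot the chain was even. The share of a spot's UMIs taken by all members had a median of 1.44% in AEG-1ΔMAC (5th to 95th percentile 1.28% to 1.63%) and 1.38% in the floxed control (1.22% to 1.55%). By part of the zone index the medians were 1.44%, 1.43% and 1.45% in AEG-1ΔMAC and 1.37%, 1.37% and 1.40% in the floxed control. Spots with few UMIs spread more by counting alone, and spots are not replicates.

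Genes that serve the chain without matching the symbols were compared in the same way. Of 40 assembly factors in the files 34 had at least 10 CPM, with a median log2 ratio between the genotypes of 0.08, as for the subunits. By the 1.2-fold rule 7 of the 34 were higher and 0 lower, where 25.9% and 5.5% of all genes were, and relative to all genes 1 was higher and 2 lower, where 9.59% and 11% were. Foxred1, an assembly factor of complex I, was at 22.4 and 15.8 CPM (0.50, 0.37 to 0.64), and Coa5, one of complex IV, at 71.3 and 56.1 CPM (0.35, 0.27 to 0.42). Along the lobule the assembly factors leaned more toward zone 3 than the subunits, with medians of 0.19 and 0.09. The 6 carriers and subunits of other names had medians of 0.08 between genotypes and 0.11 and 0.10 along the lobule. The 13 TCA cycle genes had 0.12 between genotypes and -0.02 and -0.06 along the lobule.

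The 16 regulators of mitochondrial gene expression at 10 CPM or more had a median of 0.11 between genotypes, and 1 of them was higher by the 1.2-fold rule, where 25.9% of all genes were. This was the coactivator Pprc1 (14.9 and 10.9 CPM, 0.45, 0.29 to 0.62). Nrf1 was at 18.6 and 16.7 CPM (0.16), Gabpa at 32.9 and 32.2 CPM (0.03) and Esrra, which encodes an ERR, at 21.4 and 18.5 CPM (0.21, 0.08 to 0.34). The coactivator Ppargc1b lay toward zone 1 in both libraries (-0.69 and -0.53), as did Ppargc1a (-0.72 and -0.50), which was under 10 CPM. Between the genotypes Ppargc1b had a log2 ratio of 0.02 (-0.10 to 0.14) and Ppargc1a one of 0.32 (0.08 to 0.56). Esrrg, another ERR gene under 10 CPM, was at 2.4 CPM in AEG-1ΔMAC and 0.5 CPM in the floxed control (110 and 27 UMIs), a log2 ratio of 2.17 (1.56 to 2.84). It was higher in zone 3 in both libraries, by 2.35 (1.48 to 3.34) and 2.27 (0.68 to 4.28). The more abundant Esrra ran the other way in both, with -0.31 (-0.54 to -0.09) and -0.25 (-0.48 to -0.02). The subunits' median zone ratios of 0.01 and 0.04 lay between those of Ppargc1b and Esrrg. So did the 5th to 95th percentiles of all genes (-0.34 to 0.47 and -0.29 to 0.45), so this position is not particular to the subunits.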

How the data were processed

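Per the labels and the study's methods, the authors processed formalin-fixed Visium sections (probe-based capture, 1 section per genotype) with Space Ranger 2.0.1 against mm10 and its mouse probe set. The deposited files hold raw UMI counts per gene and spot, with no normalisation, and were limited to spots under tissue. Spots with at most 50000 UMIs and from 100 to 7000 genes were kept, which removed 9 of 2149 and 3 of 2543, although the study gives the deposited numbers of spots as those left by this filter. UMIs were summed per library or zone part and scaled to CPM. Ratios have exact conditional binomial (Clopper-Pearson) 95% intervals, levels exact Poisson intervals and differences of zone ratios a Poisson normal interval. No p-value was computed, since spots are not replicates.

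The zone index was the mean scaled log-normalised level of Cyp2e1, Cyp1a2 and Oat minus that of Pck1, Hal, Gls2, Cyp2f2, Hsd17b13 and Arg1. Portal and vessel spots were those with the highest summed Spp1, Epcam, Krt7, Krt19, Sox9, Acta2, Myh11, Tagln, Mgp and Dcn. Of the genes named, each complex gave its 2 highest and 2 lowest by genotype ratio and by mean zone ratio (complex II all), with the isoform groups. Ndufa11, Ndufa5, Ndufa8, Ndufb2, Ndufb3, Ndufb4, Uqcrfs1, Atp5b, Atp5mpl and the genes outside the chain were named after their values were seen. The ratio in portal and vessel spots, the comparison by transcript length and the counts of members under 10 CPM were added after seeing the data. The members and lists were chosen with earlier results of these data known. Transcript lengths and gene positions came from GENCODE M21 and promoters from RefSeq. Python 3.11.15 with scipy 1.17.1, and edgeR 4.0.16 in R 4.3.3 for TMM factors, were used, and the intervals were tested on simulated data. Mitochondrial and cytosolic ribosomal genes were not analysed here.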

Additional observations from a re-analysis of the deposited data

How the results depend on the processing

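The settings were tried one at a time on medians, counts and named genes. Of 420 values for medians and counts, 340 moved by no more than a set limit. For a median this was the counting error of a typical single gene among its members, and for a count 1.5 times. The limit for medians is wider than the counting error of a median over many genes. Another 70 moved more, and 10 were classed as turned in sign. These 10 are not all the values that changed sign. Among the 70, the genotype median of complex IV went from 0.022 to -0.10 with TMM factors. Likewise the zone median of all members in AEG-1ΔMAC went from 0.015 to -0.099 without the 50 most abundant genes. The genotype medians relative to all genes cannot move under the 3 rescalings, which shift every gene alike. For the same reason the zone medians relative to all genes cannot move when the 50 most abundant genes are left out of the totals. With Ndufa4l2 counted in complex I no genotype or zone median can move, since it is under 10 CPM. These fixed values are among the 340. The genotype medians relative to all genes moved by no more than this single-gene limit with all deposited spots, the mean over spots, spots matched on UMIs or without portal and vessel spots. The same held at minimums of 1 and 50 CPM, although complex I turned from -0.027 to 0.016 at 1 CPM.

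Rescaling shifted all genes together, so the unadjusted genotype medians moved with TMM factors, median-of-ratios factors and the total without the 50 most abundant genes, given in that order. They were -0.046, -0.052 and -0.064 for all members, -0.0052, -0.011 and -0.023 for complex I, -0.012, -0.018 and -0.030 for complex II, -0.14, -0.14 and -0.15 for complex III, -0.10, -0.11 and -0.12 for complex IV, and -0.10, -0.10 and -0.11 for complex V. Each of these settings left 1 member higher and 1 lower. A minimum of 50 CPM left 1 higher, a minimum of 1 CPM gave 2 lower, a 1.1-fold rule gave 21 higher and 1 lower, and a 1.5-fold rule 0 higher. Relative to all genes, the members higher numbered 0 with the mean over spots, with spots matched on UMIs and without portal and vessel spots, 2 at 1 CPM, 2 at 1.1-fold and 0 at 1.5-fold. Those lower numbered 2, 3 and 2 in the same 3 settings, 3 at 1 CPM, 16 at 1.1-fold and 0 at 1.5-fold.

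Zone totals without the 50 most abundant genes gave zone medians in AEG-1ΔMAC of -0.10 for all members and -0.069, -0.11, -0.12, -0.093 and -0.16 for complexes I to V. In the floxed control these were -0.052 for all members and -0.033, -0.14, -0.13, -0.023 and -0.073. With the outer 10% of spots at each end, complex II was at -0.054 and complex III at -0.12 in AEG-1ΔMAC (-0.20 and -0.26 relative to all genes), and complex IV was at 0.17 in the floxed control, where complexes II and V were at -0.20 and -0.17 relative to all genes. Ndufs5 in the floxed control turned to -0.17 there.

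Members higher in zone 3 in AEG-1ΔMAC numbered 2 with the outer 10%, 1 at 1 CPM and 4 at 1.1-fold, and members lower numbered 3 without the 50 genes, 3 at 1 CPM, 0 at 50 CPM and 3 at 1.1-fold. In the floxed control those higher numbered 6 with the outer 10%, 2 with the landmark index, 0 without the 50 genes, 0 at 50 CPM, 7 at 1.1-fold and 0 at 1.5-fold. Those lower numbered 2 with the outer 10%, 0 with the landmark index, 2 without the 50 genes, 2 at 1 CPM, 0 at 50 CPM, 2 at 1.1-fold and 0 at 1.5-fold. The cause of these moves was not tested, beyond the number of genes or spots that each setting itself fixes.

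No paired analysis was possible because each genotype had 1 library. The minimum of 10 CPM equals 455 UMIs in AEG-1ΔMAC and 503 in the floxed control, so depth limited mainly the low isoforms, and the spread between mice was not measured.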
